A study of Mus musculus with 9 samples.

Results

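The genes described here are 10 members of the NRF2 pathway, measured by RNA sequencing in mouse pancreas: Nfe2l2, Keap1, Hmox1, Nqo1, Gclc, Gclm, Txnrd1, Slc7a11, Srxn1 and Osgin1. They were chosen by symbol as the regulator, its sensor and 8 classical targets, and all 10 were found among the 17132 genes of the deposited table. Each group held 3 C57BL/6 mice weighing 22 to 25 g, with no genetic change named in the labels. QYD mice received 7 hourly intraperitoneal injections of caerulein, with lipopolysaccharide (LPS) added to the last, and were treated at 0 and 8 h with a herbal medicine, Qingyi Decoction. Model mice received the same injections and saline in place of the decoction. Control mice received only saline. Pancreas was collected 24 h after the start, and 1 library was made per mouse. Caerulein is an analogue of cholecystokinin that overstimulates acinar cells, and LPS is a bacterial cell wall component that drives inflammation.

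NRF2, the protein of Nfe2l2, is a transcription factor that is held at low levels in unstressed cells because KEAP1 presents it to a CUL3 ubiquitin ligase. Oxidants and electrophiles modify cysteines of KEAP1, NRF2 then accumulates, pairs with a small MAF protein and binds antioxidant response elements. Its targets supply glutathione, thioredoxin and NADPH and detoxify quinones and haem. Much of this control acts on the protein, so the transcript of Nfe2l2 is not a readout of NRF2 activity.

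RefSeq promoter windows of build GRCm38.p6, from 250 bases before to 50 bases after a start of a gene, were given for 8 of the 10 members, with 10 windows in all. That start lies inside the annotated gene for Gclm, Slc7a11 and Osgin1, and for the Txnrd1 windows other than that at its outer start. The letters TGACNNNGC, the core of the antioxidant response element, were searched on both strands, where N is any base. A match lay in 4 of the 10 windows, 1 each of Nfe2l2, Txnrd1, Gclm and Srxn1, against 12.4% of all 32851 windows of this length. None of the 4 matches overlapped the letters TGANTCA of the AP-1 motif, which were found in 7.8% of all windows. With any base in the fourth place (TGANNNNGC, a search added after these matches were seen) 8 of the 10 windows held a match, against 41.3% of all windows. A match is a description of letters and not evidence that NRF2 binds there.

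The windows with a match are shown for the 3 members whose transcripts passed the test below, because transcripts of Nfe2l2 and Txnrd1 stood higher and that of Gclm lower, relative to the typical gene, in injured pancreas. The sequences run 5′ to 3′ on the strand of the gene, with the match in capitals. In the windows of Txnrd1 and Gclm the motif reads on the opposite strand, so that the capitals show its reverse complement. That of Nfe2l2 lies on the minus strand at chr2:75704614-75704913, with the match 240 bases before the start. That of Txnrd1 lies on the plus strand at chr10:82858956-82859255, with the match 92 bases before a start inside the gene. The other Txnrd1 windows held no match. They lie at chr10:82833701-82834000, which covers the outer start of the gene, and at chr10:82860091-82860390. That of Gclm lies on the plus strand at chr3:122245307-122245606, with the match 134 bases before a start inside the gene, which begins at 122245487.
Nfe2l2: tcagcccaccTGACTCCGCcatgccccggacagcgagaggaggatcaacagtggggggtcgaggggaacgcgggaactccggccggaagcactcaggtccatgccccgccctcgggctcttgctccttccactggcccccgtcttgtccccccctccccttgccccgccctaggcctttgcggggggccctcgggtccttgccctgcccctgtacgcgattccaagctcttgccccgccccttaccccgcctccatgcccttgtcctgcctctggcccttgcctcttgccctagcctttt
Txnrd1: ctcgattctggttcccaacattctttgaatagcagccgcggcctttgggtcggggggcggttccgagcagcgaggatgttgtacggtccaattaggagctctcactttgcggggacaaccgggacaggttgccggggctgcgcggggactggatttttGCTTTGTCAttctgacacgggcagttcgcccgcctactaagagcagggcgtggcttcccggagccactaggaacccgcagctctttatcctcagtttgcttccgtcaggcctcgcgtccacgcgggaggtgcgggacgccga
Gclm: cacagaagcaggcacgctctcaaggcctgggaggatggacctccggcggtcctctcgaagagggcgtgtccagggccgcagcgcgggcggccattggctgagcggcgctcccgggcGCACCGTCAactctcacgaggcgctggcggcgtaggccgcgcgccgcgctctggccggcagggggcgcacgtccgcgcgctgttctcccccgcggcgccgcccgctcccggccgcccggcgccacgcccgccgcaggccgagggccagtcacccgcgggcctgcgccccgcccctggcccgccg

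Libraries held 19112923 to 20212744 estimated counts. Their composition differed between the injured groups and Control. The trimmed mean of M values (TMM), which scales libraries to the typical gene, gave factors of 1.36 to 1.79 in QYD, 1.52 to 1.82 in Model and 0.359 to 0.397 in Control. On library totals alone the median log2 fold change of all tested genes was 2.19 in Model versus Control and 2.09 in QYD versus Control. Levels below are CPM, counts scaled to a common library size, on the TMM scale unless stated, so that higher and lower are relative to the typical gene, and values on library totals are given where the direction differs. In bulk tissue, fewer cells of a type and less RNA per cell cannot be told apart.

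Some libraries stood apart within their group. In Control 43 Gclc, Srxn1 and Slc7a11 were at 77.9, 24.2 and 22.4 CPM, above the other Control libraries, where Gclc was at 16.7 and 20.2 CPM, Srxn1 at 4.07 and 6.10 CPM and Slc7a11 at 8.91 and 5.47 CPM. Its red blood cell markers summed to 213 CPM, against 74.2 and 76.0 CPM in the other Control libraries, and its 6 B and plasma cell markers to 23.8 CPM, against 6.37 and 6.36 CPM. Model 56 was the highest Model library for the same 3 genes. Control 45 had the highest Hmox1, Nfe2l2 and Txnrd1 among Control libraries, and its 8 neutrophil markers summed to 38.1 CPM, against 14.3 in Control 43 and 8.28 in Control 44. Results that rest on these libraries are given with and without them.

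Relative to the typical gene, the regulator Nfe2l2 and the targets Hmox1 and Txnrd1 rose in Model pancreas, while Gclm, Osgin1 and Slc7a11 were lower on this scale. Keap1, Nqo1, Gclc and Srxn1 did not pass the test. The 3 members called higher among 10 compare with 21.3% of all 12828 tested genes, and the 3 called lower compare with 21.3% as well (edgeR quasi-likelihood test, adjusted p under 0.05). The median log2 fold change of the members was 0.72, against 0.04 over all tested genes. On library totals 9 of the 10 members were called higher and none lower, when 94% of all genes were called higher and 0.943% lower, so the lower values hold only relative to the typical gene. Against the same Control libraries, QYD had 3 members called higher and 4 lower, with 20.5% and 20.3% of all genes (40.7% in either direction), and Keap1 joined the lower ones. Library totals gave 9 members higher and none lower in QYD versus Control, against 93.8% and 0.99% of all genes. Both comparisons share those Control libraries, so their values are given side by side and not as independent support. CPM of the groups did not overlap for 3 members in the higher and 3 in the lower direction in Model versus Control, where 27.4% and 24.9% of all genes did so. For QYD versus Control these were 4 and 4 members, against 27.8% and 24.7% of all genes.

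**Figure D1:**
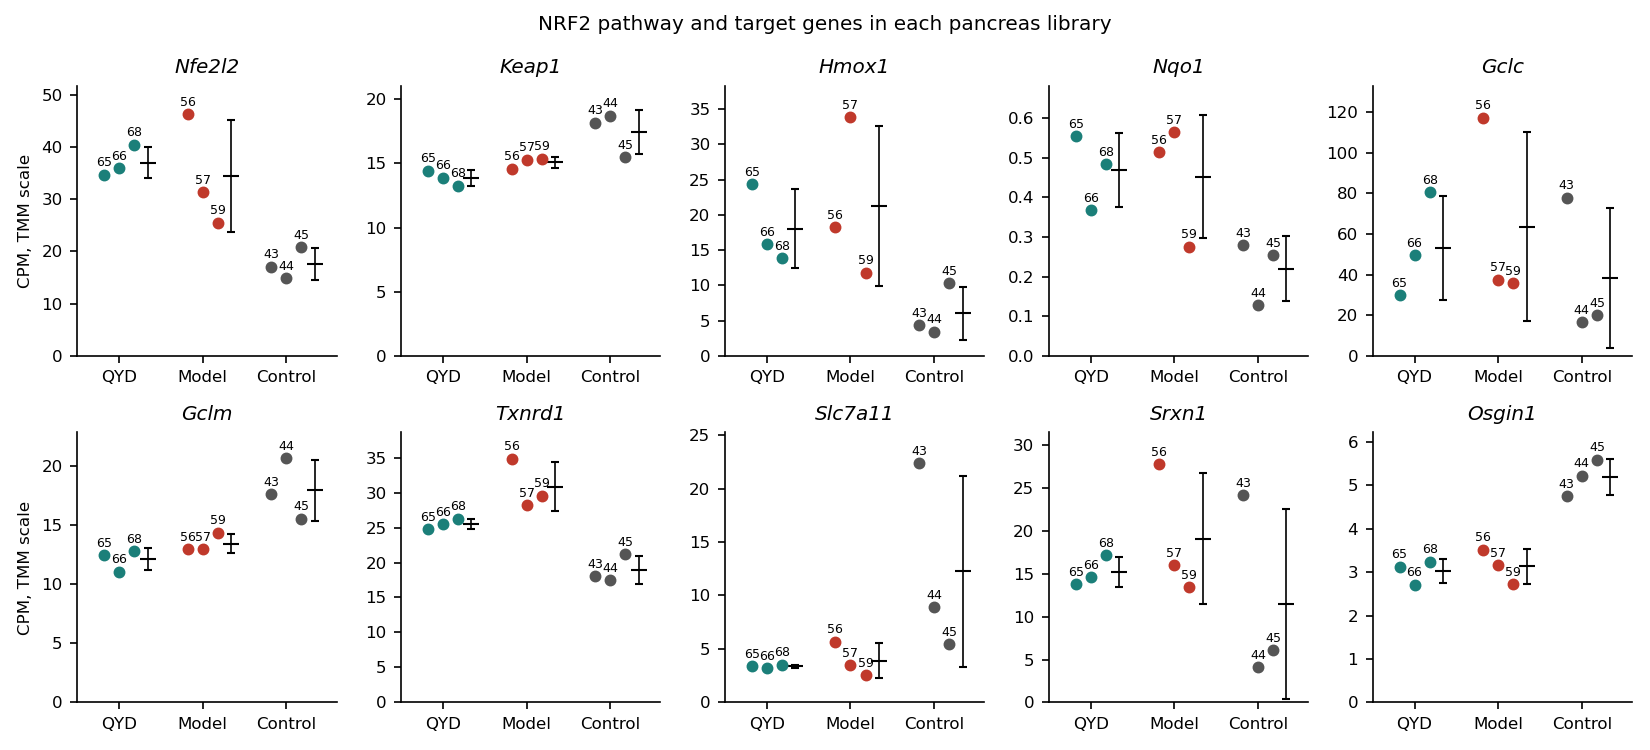
CPM on the TMM scale (y axis) of each member in every library, by group, with the library number at each point and the mean and SD over 3 mice as bars. Nfe2l2 was at 34.7 to 40.4 CPM in QYD, 25.5 to 46.2 CPM in Model and 14.9 to 20.8 CPM in Control, and Control 43 lay far above the other Control libraries for Gclc, Slc7a11 and Srxn1.

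Nfe2l2 (chromosome 2, 75675513 to 75704663, GRCm38.p6) stood at 34.7, 35.9 and 40.4 CPM in QYD, at 46.2, 31.4 and 25.5 CPM in Model and at 17.1, 14.9 and 20.8 CPM in Control. Every library of the injured groups lay above every Control library. Nfe2l2 rose 1.95-fold in Model versus Control, a log2 fold change of 0.97 ± 0.21 (SE) with an edgeR adjusted p of 0.0040. It rose 2.10-fold in QYD versus Control, by 1.07 ± 0.21, with an adjusted p of 0.0025. These calls were kept with each of the 9 libraries left out and in all 10 other settings that keep a composition scale.

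Keap1 (chromosome 9, 21229730 to 21239332), which encodes the sensor of the pathway, was at 14.4, 13.9 and 13.3 CPM in QYD, at 14.6, 15.3 and 15.4 CPM in Model and at 18.2, 18.7 and 15.5 CPM in Control. The groups did not overlap, yet the lowest Control library and the highest Model library differed by little. The log2 fold change in Model versus Control was -0.21 ± 0.11 on the TMM scale and did not pass (adjusted p = 0.16), with 1.94 on library totals. For QYD versus Control it was -0.33 ± 0.11 with an adjusted p of 0.038, and 1.71 on library totals, where the direction is the opposite. That call was lost with 8 of the 9 libraries left out singly, all but Control 45, and in 5 of 10 other settings (adjusted p 0.021 to 0.12). GENCODE M21 lists an antisense gene over 10.9% of the Keap1 exon bases, and since no source used here states whether counting kept strand, reads of the pair cannot be told apart.

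The ratio of Nfe2l2 to Keap1 within a library does not depend on how libraries are scaled. From deposited FPKM, which are per length, the ratio was 3.15, 3.37 and 3.99 in QYD, 4.22, 2.69 and 2.21 in Model and 1.25, 1.04 and 1.79 in Control. No library of either injured group overlapped Control. The mean log2 ratio was 1.80 ± 0.18 in QYD, 1.55 ± 0.48 in Model and 0.41 ± 0.40 in Control (SD, n = 3 each). The difference of 1.14 for Model versus Control and of 1.40 for QYD versus Control each gave p = 0.1 in a two-sided exact permutation test, the smallest p that 3 against 3 mice allow, and 0.4 after adjustment over 12 such comparisons (4 ratios, 3 group pairs).

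**Figure D2:**
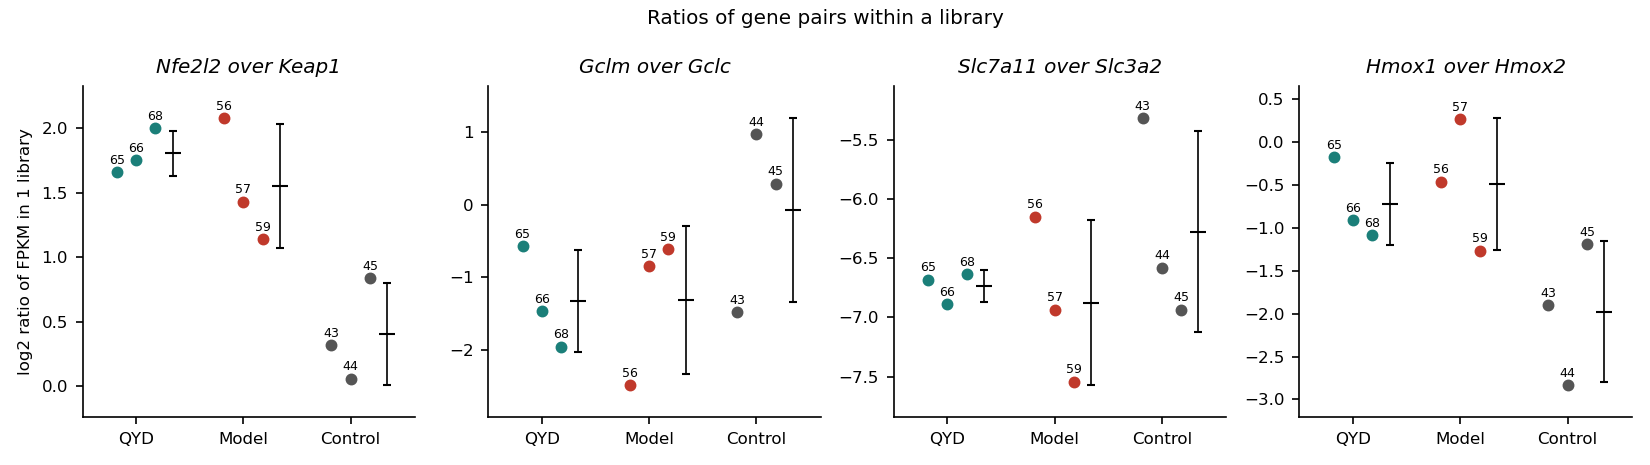
Log2 ratio of the deposited FPKM of 2 genes in the same library (y axis) by group, with library numbers and the mean and SD over 3 mice. Nfe2l2 over Keap1 lies above Control in every QYD and Model library, while Gclm over Gclc and Slc7a11 over Slc3a2 overlap between all groups.

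Hmox1 (chromosome 8, 75093618 to 75100593) encodes haem oxygenase 1, the inducible enzyme that opens haem to biliverdin, iron and carbon monoxide. It was at 24.4, 15.9 and 13.9 CPM in QYD, at 18.3, 33.9 and 11.8 CPM in Model and at 4.33, 3.44 and 10.3 CPM in Control. Model 59 and Control 45 lay close to each other, but the groups did not overlap. Hmox1 had the largest log2 fold change among the members in Model versus Control, 1.82 ± 0.46 with an edgeR adjusted p of 0.0084, a 3.53-fold rise. Without Control 45 it was 2.46 with an adjusted p of 0.0039, without Model 57 it was 1.32 (0.024) and without Control 44 it was 1.53 (0.042). The value in QYD versus Control was 1.58 ± 0.46 with an adjusted p of 0.018. There the call was lost without Control 43 (adjusted p = 0.068), Control 44 (0.081) or QYD 65 (0.063) and in limma-voom (0.069), and the value was 2.22 without Control 45.

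Hmox1 is abundant in macrophages, so their markers are given beside it. The 10 macrophage markers summed to 234 to 261 CPM in QYD, 188 to 301 CPM in Model and 127 to 219 CPM in Control. Of these markers 4 passed as higher and 1 as lower in Model versus Control, with 4 and 0 in QYD versus Control, and none was at 0 in any library. Among them Cd14 averaged 98.3 CPM in QYD, 109 CPM in Model and 14.8 CPM in Control. On the TMM scale the rise in the sums rests on Cd14 and was not shared by the markers as a set. The median log2 fold change of the 10 markers was -0.27 in Model versus Control and -0.14 in QYD versus Control on the TMM scale. On library totals these medians were 1.91 and 1.90. Model 57, the library with the highest Hmox1, had the highest macrophage sum as well. In QYD and Control the highest sum and the highest Hmox1 fell in different libraries. The highest QYD sum, 261 CPM, was in QYD 66, where Hmox1 was at 15.9 CPM, against a sum of 243 CPM in QYD 65, where Hmox1 was at 24.4 CPM. The highest Control sum, 219 CPM, was in Control 43, where Hmox1 was at 4.33 CPM, against a sum of 175 CPM in Control 45, where Hmox1 was at 10.3 CPM. The lowest sum and the lowest Hmox1 fell in the same library in every group. These were QYD 68 (234 and 13.9 CPM), Model 59 (188 and 11.8 CPM) and Control 44 (127 and 3.44 CPM). The part of macrophages in the Hmox1 values was not tested. Hmox2, the constitutive haem oxygenase, did not pass in either comparison with Control. The ratio of Hmox1 to Hmox2 was 0.89, 0.53 and 0.47 in QYD, 0.73, 1.21 and 0.42 in Model and 0.27, 0.14 and 0.44 in Control. QYD did not overlap Control, whereas Model 59 lay below Control 45. The mean log2 ratio differed by 1.49 in Model versus Control (exact permutation p = 0.2) and by 1.25 in QYD versus Control (exact permutation p = 0.1), with adjusted p of 0.6 and 0.4.

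Txnrd1 (chromosome 10, 82833951 to 82897724) encodes the cytosolic thioredoxin reductase, a selenoprotein that uses NADPH to keep thioredoxin reduced. It was at 24.8, 25.5 and 26.3 CPM in QYD, at 34.8, 28.2 and 29.6 CPM in Model and at 18, 17.4 and 21.2 CPM in Control. The 3 groups did not overlap, with Model above QYD and QYD above Control. Txnrd1 rose 1.63-fold in Model versus Control, a log2 fold change of 0.71 ± 0.13 with the smallest adjusted p of the members, 0.0012, and passed with every library left out. The rise of 0.43 ± 0.13 in QYD versus Control passed (adjusted p = 0.019) but was lost without Control 44 (0.057), QYD 66 (0.052) or QYD 68 (0.052).

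Srxn1 (chromosome 2, 152105524 to 152111376) encodes sulfiredoxin, which repairs overoxidised peroxiredoxins. It was at 13.8, 14.6 and 17.1 CPM in QYD, at 27.8, 16.0 and 13.5 CPM in Model and at 24.2, 4.07 and 6.10 CPM in Control. Control 43 alone overlapped the injured groups. The log2 fold change was 0.76 ± 0.50 in Model versus Control and 0.42 ± 0.50 in QYD versus Control, and neither passed (adjusted p = 0.25 and 0.53). Without Control 43 the values were 1.91 and 1.58, and both passed (adjusted p = 0.0025 and 0.0072). Other removals lowered them, to 0.35 without Control 44 and 0.38 without Model 56 in Model versus Control, and to 0.018 without Control 44 and 0.12 without Control 45 in QYD versus Control.

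Glutathione is made from glutamate, cysteine and glycine, and its first step is carried out by a dimer of the catalytic subunit Gclc and the modifier subunit Gclm. Gclc (chromosome 9, 77754535 to 77794489) was at 29.8, 49.7 and 80.5 CPM in QYD, at 117, 37.6 and 35.8 CPM in Model and at 77.9, 16.7 and 20.2 CPM in Control. It varied more within each group than any other member did by SD in CPM, a measure that grows with level, and all groups overlapped. In log2 CPM Srxn1 spread wider around its Control mean, from -1.04 to 1.505, against -0.83 to 1.39 for Gclc. In Model and QYD Gclc spread wider than Srxn1 in log2 CPM as well. Its log2 fold change of 0.74 ± 0.62 in Model versus Control did not pass (adjusted p = 0.36). The value was 1.79 with an adjusted p of 0.038 without Control 43, -0.05 without Model 56, 0.38 without Control 44 and 0.44 without Control 45. The value of 0.48 ± 0.62 in QYD versus Control did not pass either (adjusted p = 0.56), and it was 1.53 without Control 43 (adjusted p = 0.066), 0.063 without QYD 68, 0.13 without Control 44 and 0.18 without Control 45. The libraries with the highest Gclc in the injured groups, Model 56 and QYD 68, also had the highest sums of 8 duct cell markers, 878 and 689 CPM, where the other 4 injured libraries lay between 312 and 427 CPM. Control 43, the highest Control library for Gclc, had a duct marker sum of 125 CPM, within the Control range of 122 to 176 CPM. The part of duct cells in the Gclc values was not tested.

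Gclm (chromosome 3, 122245487 to 122267215) varied little within groups and was at 12.5, 11.1 and 12.8 CPM in QYD, at 12.9, 13.0 and 14.3 CPM in Model and at 17.6, 20.6 and 15.5 CPM in Control. The 3 groups did not overlap, with Control the highest. Its log2 fold change in Model versus Control was -0.42 ± 0.13 (adjusted p = 0.025) on the TMM scale and 1.73 on library totals, where the direction is the opposite. This call was lost without Control 44 (adjusted p = 0.090), Model 56 (0.073) or Model 57 (0.077), without a filter on low counts (0.066) and in limma-voom (0.069). The value in QYD versus Control was -0.57 ± 0.13 (adjusted p = 0.0061) on the TMM scale and 1.47 on library totals, and the TMM call was kept with each library left out. A gene on the opposite strand covers 4.7% of its exon bases and a pseudogene on the same strand 3.9%. How many reads they share with Gclm was not tested, so its counts are uncertain. The ratio of Gclm to Gclc, free of the scaling, was 0.67, 0.36 and 0.26 in QYD, 0.18, 0.56 and 0.65 in Model and 0.36, 1.96 and 1.22 in Control. Control 43 lay among the injured libraries, so the groups overlapped. The mean log2 ratio differed by -1.24 in Model versus Control and by -1.26 in QYD versus Control, with an exact permutation p of 0.3 (0.6 adjusted) for each.

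Slc7a11 (chromosome 3, 50364936 to 50499087) encodes xCT, the light chain of the transporter that brings in cystine, the source of cysteine for glutathione. It was at 3.36, 3.18 and 3.54 CPM in QYD, at 5.70, 3.45 and 2.52 CPM in Model and at 22.4, 8.91 and 5.47 CPM in Control. Control lay above every QYD library, while Model 56 and Control 45 overlapped. The log2 fold change on the TMM scale was -1.64 ± 0.43 in Model versus Control (adjusted p = 0.011) and -1.85 ± 0.44 in QYD versus Control (adjusted p = 0.0066). On library totals the values were 0.57 and 0.20, with the opposite sign, and neither passed. Without Control 43 the TMM values were -0.88, which did not pass (adjusted p = 0.066), and -1.09, which did (adjusted p = 0.030). Slc3a2, the heavy chain with which xCT and other transporters pair, was lower on the TMM scale too, by -0.80 ± 0.13 in Model versus Control and -1.08 ± 0.13 in QYD versus Control, against 1.35 and 0.96 on library totals. The log2 ratio of Slc7a11 to Slc3a2 averaged -6.73 ± 0.13 in QYD, -6.88 ± 0.70 in Model and -6.28 ± 0.85 in Control (SD, n = 3 each), and all groups overlapped.

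Osgin1 (chromosome 8, 119425882 to 119446257) encodes an oxidative stress induced growth inhibitor. It was at 3.13, 2.71 and 3.24 CPM in QYD, at 3.52, 3.16 and 2.72 CPM in Model and at 4.75, 5.22 and 5.59 CPM in Control. All Control libraries lay above all injured ones. The log2 fold change on the TMM scale was -0.73 ± 0.18 in Model versus Control (adjusted p = 0.0069), with the opposite sign, 1.43, on library totals. QYD versus Control gave -0.78 ± 0.18 (adjusted p = 0.0053), against 1.25 on library totals. Without Control 43 and Control 45 together the value of -0.72 in Model versus Control did not pass (adjusted p = 0.055).

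Nqo1 (chromosome 8, 107388225 to 107403205), a quinone reductase and a standard marker of NRF2 activity in other tissues, was close to the limit of detection. It had 19, 11 and 13 counts in QYD, 18, 19 and 8 counts in Model and 2, 1 and 2 counts in Control. Summed over a group on the TMM scale, the ratio was 2.11 in Model versus Control, with a 95% counting interval of 0.84 to 6.81, and 2.16 in QYD versus Control, with 0.86 to 7.00. The interval covers counting error only. The log2 fold changes of 1.04 ± 0.57 and 1.09 ± 0.57 did not pass (adjusted p = 0.16 and 0.15), and a difference was not detectable at this depth on the TMM scale.

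**Figure D3:**
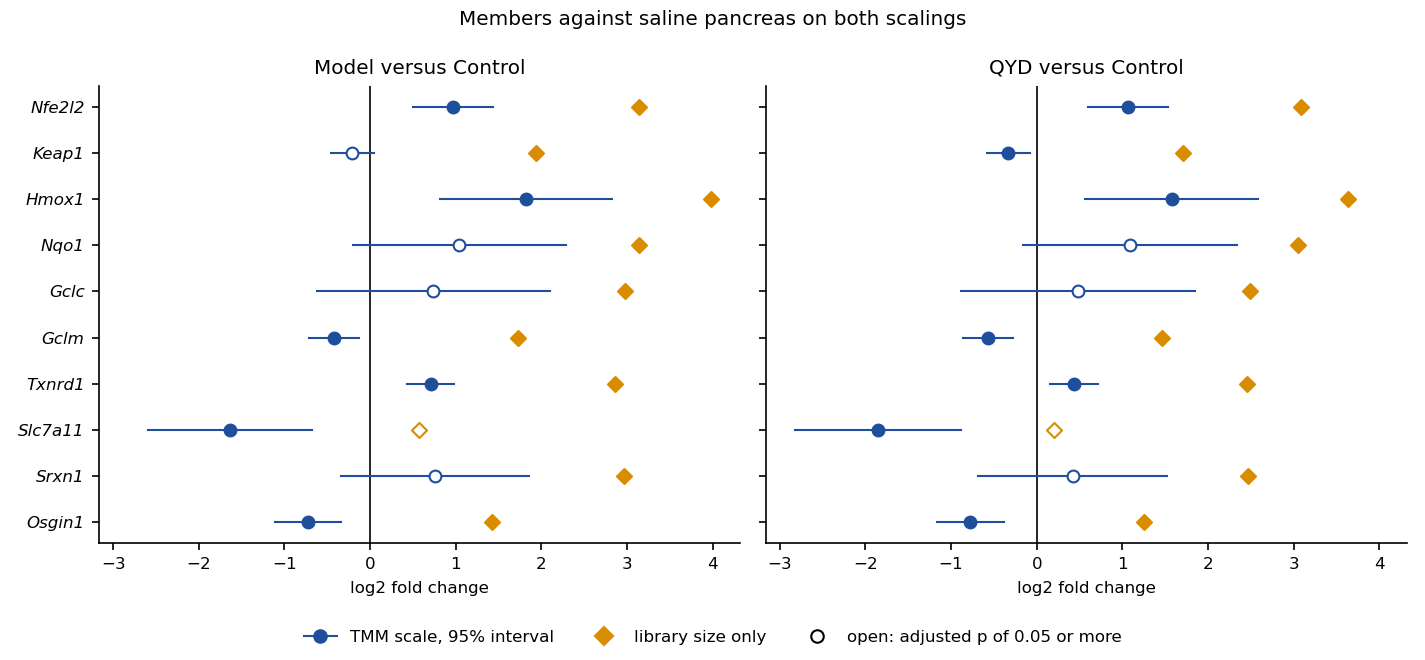
Log2 fold change (x axis) of each member in Model versus Control and QYD versus Control, with circles and 95% intervals on the TMM scale and diamonds on library totals, filled where the adjusted p is under 0.05. Keap1, Gclm, Slc7a11 and Osgin1 lie below 0 on the TMM scale and above 0 on library totals, while Nfe2l2, Hmox1 and Txnrd1 lie above 0 on both.

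Per length, the order of levels was led by Gclc in each group, at 25.4 ± 8.95 FPKM in QYD, 35.3 ± 28.3 in Model and 4.597 ± 3.91 in Control (SD, n = 3). This lead rests on 1 library in each group. Without QYD 68 Gclc averaged 20.6 FPKM in QYD, below Nfe2l2 at 24.77 and Hmox1 at 23.55 FPKM. Without Model 56 Gclc averaged 19.0 FPKM in Model, below Hmox1 at 26.6 and Nfe2l2 at 19.7 FPKM, and without Control 43 it averaged 2.35 FPKM in Control, below Gclm at 3.64 and Nfe2l2 at 2.97 FPKM. In QYD Nfe2l2, Hmox1, Txnrd1, Gclm and Srxn1 followed, and each of these 6 overlapped its neighbour. Keap1 at 7.02 ± 1.24 FPKM lay below them, narrowly, and Osgin1 at 2.58 ± 0.42 FPKM below Keap1, both without overlap. Slc7a11 and Nqo1 came last, at 0.58 ± 0.072 and 0.52 ± 0.16 FPKM, and overlapped each other. In Model the order was Gclc, Hmox1, Nfe2l2, Txnrd1, Srxn1, Gclm, Keap1, Osgin1, Slc7a11 and Nqo1, with the breaks at the same places above Keap1, Osgin1 and Slc7a11. In Control Gclm at 3.51 ± 0.53, Nfe2l2 at 2.84 ± 0.57, Txnrd1 at 2.19 ± 0.32 and Keap1 at 2.12 ± 0.20 FPKM followed Gclc, then Hmox1, Srxn1 and Osgin1, and each of these 8 overlapped its neighbour. Slc7a11 at 0.50 ± 0.34 FPKM lay below Osgin1 without overlap in Control, and Nqo1 at 0.057 ± 0.023 FPKM below Slc7a11.

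The decoction was tested in QYD versus Model. No member passed edgeR's quasi-likelihood test, in which no gene of all 12828 passed (0%), and the smallest adjusted p among the members was 0.83. At an unadjusted p under 0.05 there was 1 member, Txnrd1, against 5.85% of all genes. DESeq2 and limma-voom called 0 members as well, and over all genes DESeq2 called 0 and limma-voom 1. The log2 fold changes ran from -0.33 to 0.10 with a median of -0.18, against 0.01 over all tested genes, and 8 of the 10 were negative.

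Txnrd1 averaged 25.5 ± 0.75 CPM in QYD and 30.9 ± 3.50 CPM in Model (SD, 3 mice each), which is a log2 change of -0.28 ± 0.12 with a 95% interval of -0.54 to -0.01 before adjustment over genes. Keap1 and Gclm also had lower values in every QYD library than in any Model library, with -0.12 (interval -0.36 to 0.12) and -0.15 (interval -0.43 to 0.13). The gaps were narrow. Keap1 was at 14.4 CPM in QYD 65 and 14.6 CPM in Model 56, and Gclm at 12.8 CPM in QYD 68 and 12.9 CPM in Model 56. On library totals both genes overlapped. There QYD 65 lay above Model 59, with Keap1 at 25.8 against 23.3 CPM and Gclm at 22.3 against 21.8 CPM. On the TMM scale 3 members thus did not overlap in the lower direction and none in the higher, where 8.18% and 8.56% of all genes did so. Nfe2l2 averaged 37.0 ± 3.03 CPM in QYD and 34.4 ± 10.7 CPM in Model, a log2 fold change of 0.10 with an interval of -0.33 to 0.54. Hmox1 averaged 18.1 ± 5.57 CPM in QYD and 21.3 ± 11.3 CPM in Model, a log2 fold change of -0.24 with an interval of -1.09 to 0.61, and 0.26 without Model 57. For Gclc the interval was the widest, from -1.58 to 1.07, and for Srxn1 it ran from -1.34 to 0.67. The data thus leave room for changes of over 1 log2 unit in Gclc, Hmox1, Srxn1 and Slc7a11, while for Keap1, Gclm and Osgin1 the intervals stay within 0.43 log2 units of 0.

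**Figure D4:**
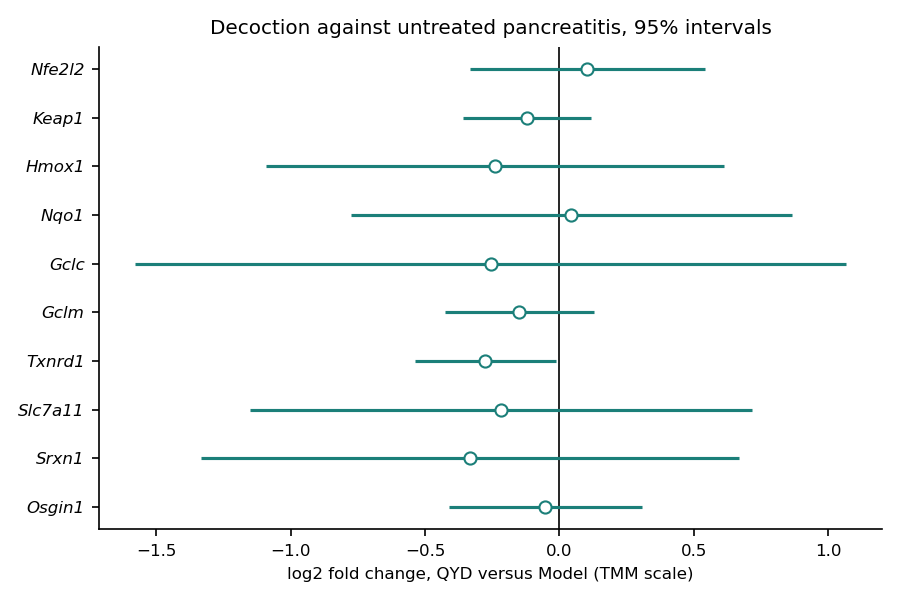
Log2 fold change of each member in QYD versus Model on the TMM scale (x axis), with 95% intervals before adjustment over genes. All circles are open because no member passed, and the interval of Txnrd1, from -0.54 to -0.01, is the only one that does not reach 0.

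Other genes of the pathway were taken as 6 lists of 59 genes in all, of which 57 were tested. The lists were chosen with earlier results of these data known, so their shares beside those of all genes are a description only. In Model versus Control 23 of the 57 were called higher and 14 lower, 40.4% and 24.6%, against 21.3% in each direction over all tested genes, with a median log2 fold change of 0.28. For QYD versus Control 21 were called higher and 14 lower, 36.8% and 24.6%, against 20.5% and 20.3% over all genes. On library totals 51 were called higher in each comparison, when 94% of all genes were called higher in Model versus Control and 93.8% in QYD versus Control. Those called lower on library totals were 2 in Model versus Control and 3 in QYD versus Control, against 0.943% and 0.99% of all genes.

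The genes listed under supply of NADPH, the reducing power of both the glutathione and the thioredoxin system, rose as a whole list. All 6 were called higher in both comparisons, where 21.3% of all tested genes were called higher in Model versus Control and 20.5% in QYD versus Control. The median log2 fold change was 1.03 in Model versus Control and 0.96 in QYD versus Control. All 6 were also called higher on library totals, as 94% and 93.8% of all genes were. The cytosolic isocitrate dehydrogenase Idh1 rose by 1.76 ± 0.20 log2 units in Model versus Control and by 1.94 ± 0.20 in QYD versus Control. Malic enzyme Me1 rose by 1.52 ± 0.21 and 1.35 ± 0.21, and Pgd, an enzyme of the pentose phosphate pathway, by 1.25 ± 0.14 and 1.19 ± 0.14 in the same order. G6pdx, which opens that pathway, rose by 0.80 ± 0.15 and 0.73 ± 0.15.

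Of 8 genes of the thioredoxin list 5 were higher and 2 lower in Model versus Control, and 3 higher and 2 lower in QYD versus Control. In Model versus Control these are 62.5% and 25%, against 21.3% of all genes in each direction, and in QYD versus Control 37.5% and 25%, against 20.5% and 20.3%. Thioredoxin, Txn1, rose by 0.94 ± 0.16 and 0.85 ± 0.16, the glutathione peroxidase Gpx2 by 1.67 ± 0.28 and 1.69 ± 0.28, and the peroxiredoxin Prdx1 by 0.53 and 0.90. Txnip, the gene of thioredoxin-interacting protein, was also among the 5, with 0.41 ± 0.15 in Model versus Control (edgeR adjusted p = 0.043). It did not pass in QYD versus Control, with 0.09. Sesn2, a stress-induced sestrin, rose by 0.92 ± 0.16 in Model versus Control and did not pass in QYD versus Control, with 0.36 (adjusted p = 0.11). The difference in QYD versus Model, -0.56 ± 0.14, had an adjusted p of 0.83. The mitochondrial reductase Txnrd2 stood lower on the TMM scale, by -0.90 ± 0.18 in Model versus Control and -0.96 ± 0.18 in QYD versus Control, against 1.24 and 1.06 on library totals.

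In the glutathione list all 7 genes were called in both comparisons, 3 higher and 4 lower, where 42.6% of all genes were called in either direction in Model versus Control and 40.7% in QYD versus Control. Gsr, which recycles oxidised glutathione, rose by 0.97 ± 0.14 in Model versus Control and 0.88 in QYD versus Control. The microsomal transferase Mgst1 rose by 1.39 ± 0.21 in Model versus Control and 1.86 ± 0.21 in QYD versus Control. Ggt1, which breaks down extracellular glutathione, fell in both comparisons and on both scales, with -3.40 ± 0.21 in Model versus Control on the TMM scale and -1.27 on library totals. Chac1, which breaks down glutathione inside cells, stood at -2.58 ± 0.44 in Model versus Control on the TMM scale, where the library total value of -0.38 did not pass. In QYD versus Control it was at -3.095 ± 0.46 on the TMM scale, and -1.05 on library totals passed too. The glycine transporter Slc6a9 was at -0.71 and -0.94 on the TMM scale, passing in both, against 1.43 and 1.10 on library totals.

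Of 11 sensor and partner genes 2 were higher and 2 lower in Model versus Control, 18.2% each way, near the 21.3% of all genes. In QYD versus Control 1 was higher and 2 lower, 9.09% and 18.2%, against 20.5% and 20.3% of all genes. The related factor Nfe2l1 rose by 0.56 ± 0.12 and 0.41 ± 0.12. Btrc, part of a ubiquitin ligase that can also target NRF2, rose by 0.66 ± 0.24 in Model versus Control. The small MAF gene Mafk stood at -0.39 ± 0.12 and -0.54 ± 0.12, and Dpp3, whose protein binds KEAP1, at -0.47 ± 0.15 and -0.68 ± 0.15, all passing on the TMM scale and all positive on library totals. The other 7, among them Cul3 of the ligase that KEAP1 serves and the autophagy receptor Sqstm1, passed in neither comparison.

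In the haem and iron list 1 of 8 genes was higher and 1 lower in Model versus Control, and 2 were higher and 1 lower in QYD versus Control. The shares of 12.5% each way in Model versus Control lie below the 21.3% of all genes, and those of 25% and 12.5% in QYD versus Control compare with 20.5% and 20.3%. Red blood cell markers, were lower in the same groups, with 5 of 5 called lower in both comparisons, and their part in these values was not tested. The ferritin heavy chain Fth1 rose by 0.58 ± 0.15 and 0.59 ± 0.15, while the ferritin light chain Ftl1 did not pass, with 0.05 and -0.14 on the TMM scale and 2.22 and 1.89 on library totals. Fech, which makes haem, stood at -0.60 ± 0.13 and -0.47 ± 0.13 on the TMM scale, against 1.55 and 1.57 on library totals. Biliverdin reductase Blvra passed in QYD versus Control only by a narrow margin (0.58 ± 0.21, adjusted p = 0.049), and the iron exporter Slc40a1 and the haem transporter Slc48a1 did not pass.

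Among 17 tested genes of quinone, aldehyde and drug handling 6 were higher and 5 lower in both comparisons, 35.3% and 29.4%, against 21.3% of all genes each way in Model versus Control and 20.5% and 20.3% in QYD versus Control. The aldo-keto reductase Akr1b8 rose by 2.2 ± 0.30 in Model versus Control and 2.27 ± 0.30 in QYD versus Control, and the exporter Abcc3 by 2.07 ± 0.28 and 1.95 ± 0.28. The epoxide hydrolase Ephx1 rose by 1.18 and 1.03. The glutathione transferase Gstm1 fell on both scales, with -3.16 ± 0.20 in Model versus Control on the TMM scale and -1.02 on library totals. Aldh1a1, a retinaldehyde dehydrogenase, was at -1.47 ± 0.14 and -1.15 ± 0.14 on the TMM scale, with the opposite sign, 0.69 and 0.88, on library totals. In QYD versus Model none of the 57 genes passed edgeR's test or was called by DESeq2 or limma-voom, and 4 had an unadjusted p under 0.05, namely Sesn2, Prdx1, Mgst1 and Aldh1a1.

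**Figure D5:**
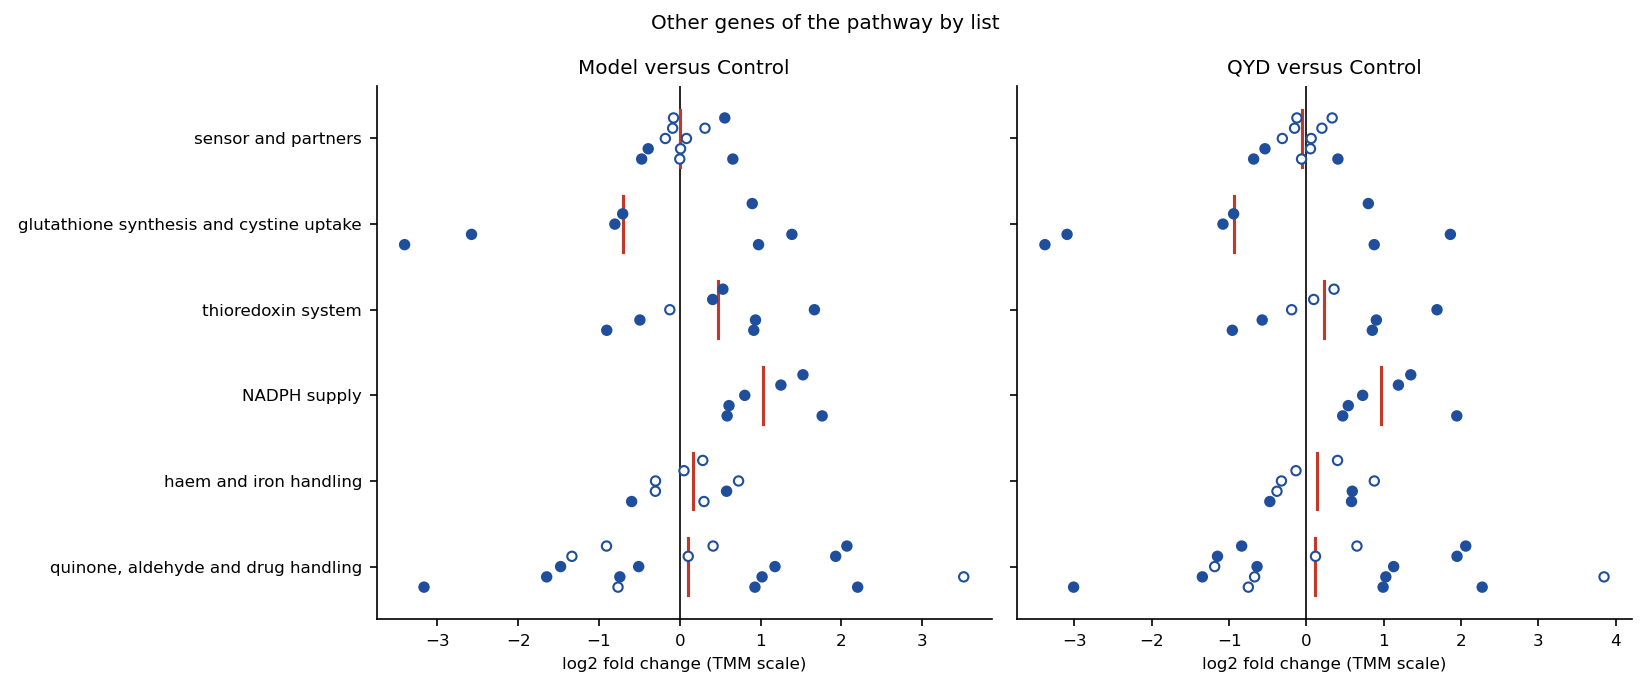
Log2 fold change on the TMM scale (x axis) of the other pathway genes, 1 circle per gene, filled where the adjusted p is under 0.05, with the median of each list as a red line. All 6 genes of NADPH supply lie above 0 and are filled in both comparisons, while the other lists hold genes on both sides of 0.

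Markers of some other cell types moved with the same groups. The 8 neutrophil markers, summed, were at 152 to 277 CPM in QYD, 116 to 186 CPM in Model and 8.28 to 38.1 CPM in Control, and all 8 were called higher in both comparisons with Control, with 1 of them at 0 in Control 44. The 5 red blood cell markers summed to 16.5 to 43.2 CPM in QYD, 24.4 to 41.7 CPM in Model and 74.2 to 213 CPM in Control, and all 5 were called lower in both comparisons on the TMM scale. On library totals none of them was called in either direction. The 7 islet markers summed to 115 to 208 CPM in QYD, 167 to 357 CPM in Model and 843 to 1261 CPM in Control, and 6 of 7 were called lower in both comparisons on the TMM scale. On library totals 2 islet markers were called higher in Model versus Control and 2 lower in QYD versus Control. The 8 duct markers summed to 312 to 689 CPM in QYD, 423 to 878 CPM in Model and 122 to 176 CPM in Control, with 5 called higher and 1 lower in Model versus Control and 4 and 2 in QYD versus Control. The 8 acinar markers, which define the labelled tissue, were detected in every library and lay below Control in both injured groups on the TMM scale, with a median log2 fold change of -2.66 in Model versus Control, against -0.53 on library totals. Of these 8 acinar markers, 8 were called lower in Model versus Control and 7 in QYD versus Control on the TMM scale, while on library totals 6 and 4 were called lower and 2 in each comparison higher. Endothelial marker sums overlapped, at 42 to 63 CPM in QYD, 45 to 66 CPM in Model and 42 to 64 CPM in Control. Fibroblast and stellate cell sums also overlapped, at 265 to 477, 280 to 472 and 265 to 378.5 CPM in the same order. Of these 7 markers 3 passed as higher and 1 as lower in Model versus Control, and 2 and 0 in QYD versus Control. None of the 6 B and plasma cell markers was called in either comparison on the TMM scale. The part of these cell types in the values of the pathway genes was not tested.

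The genes whose level followed that of Nfe2l2 most closely over the 9 libraries, by the root-mean-square difference of standardised log2 CPM among 10967 genes with at least 1 CPM, were Khdrbs1 (0.15), Arap2 (0.17), Cxcl16 (0.17), Rcc1 (0.19) and Cxadr (0.20). The genes nearest to Hmox1 were Myo1f (0.16), Nup98 (0.17), P2ry6 (0.18), Tgfbi (0.19) and Akap13 (0.19). The libraries share groups and scaling factors, and these values are a description only. Cxcl16 changed by 2.12 ± 0.32 in Model versus Control and Khdrbs1 by 0.43 ± 0.12, so that a like pattern came with different sizes of change.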

How the data were processed

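Pancreatic mRNA of 9 mice was sequenced, 3 per group, from oligo(dT)-selected RNA per the labels' protocols. RSEM 1.2.12, Bowtie2 2.2.5, HISAT2 2.0.4 and build GRCm38.p6 are listed in the submitters' processing notes, without roles. Per the file headers, the authors deposited read counts, taken here as estimated counts since 6.5% of values were not exactly whole, and FPKM and TPM, scaled by the authors for length and library. Groups and mouse numbers came from the sample titles, which spell the decoction group differently from the treatment labels.

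Counts were rounded and tested in edgeR 4.0.16 (R 4.3.3), with the default expression filter (12828 genes kept, 4304 removed), TMM scaling and 1 quasi-likelihood model of group fitted to the 9 libraries together (6 residual degrees of freedom, common biological coefficient of variation 0.175). P-values were adjusted by Benjamini-Hochberg over all tested genes at 0.05. The standard error is the log2 fold change divided by the square root of F. The 95% intervals use the same error. All 10 members passed the filter. Ratios used deposited FPKM and exact permutation tests over mice, with ratios of counts and TPM as alternatives. Gene identifiers were matched to RefSeq GRCm38.p6 for coordinates. No 2 libraries of a group agreed within sampling noise. The sources used here do not say whether mice were handled in batches, so a handling difference between groups cannot be told apart from the group difference. The edgeR p-values rest on the spread between these mice, estimated with information shared over all tested genes.

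Named genes were the members, for each pathway list and comparison the 4 genes of lowest p among those averaging 1 CPM or more, the genes of 4 ratios, and the 5 genes nearest in pattern to Nfe2l2 and to Hmox1, leaving out predicted genes and clone names. The members and lists were chosen with earlier results of these data known. Alternatives were RLE scaling, library size only, DESeq2 1.42.0, voom with sample weights (limma 3.58.1), a fit of the compared groups alone, TMM after removal of the 50 most abundant genes, a minimum of 5 CPM in 3 libraries, no filter, a threshold of 0.1 for the adjusted p, limma on log2(FPKM divided by the TMM factor + 1) or + 0.1 with FPKM of at least 1 in 3 libraries, and each library left out. Leaving out Control 43 and Control 45 together was chosen after seeing the data.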

Additional observations from a re-analysis of the deposited data

How the results depend on the processing

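Scaling changed the sign of 4 of the 10 members in both comparisons with Control. On library size only, 9 members were called higher and 0 lower in both comparisons with Control, and 51 pathway list genes were higher, with 2 lower in Model versus Control and 3 in QYD versus Control. In Model versus Control the sign changed for Gclm (1.73), Keap1 (1.94), Osgin1 (1.43) and Slc7a11 (0.57), and in QYD versus Control for Gclm (1.47), Keap1 (1.71), Osgin1 (1.25) and Slc7a11 (0.20). In QYD versus Model it changed for Nfe2l2 (-0.045) and Nqo1 (-0.081), and in limma-voom for Nqo1 (-0.0072). With limma on log2(FPKM + 1) and log2(FPKM + 0.1) 2 members each were called lower in QYD versus Control. Without Control 43 and Control 45, 1 member was called lower and 15 pathway genes higher in Model versus Control. Nqo1, below the minimum in these settings, gave no value under the 5 CPM filter, on FPKM or in the fit of Model and Control alone. Slc7a11 gave none on FPKM.

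With 1 library left out, members called higher ranged from 3 to 5 in Model versus Control, with 5 without Control 43, and from 1 to 3 in QYD versus Control, with 1 without Control 44, where only Nfe2l2 stayed. The log2 fold change of Gclc ranged from -0.051 to 1.79 in Model versus Control. In QYD versus Model the ranges were -0.68 to 0.54 for Gclc, -0.53 to 0.26 for Hmox1, -0.069 to 0.38 for Nfe2l2, -0.20 to 0.23 for Nqo1, -0.14 to 0.041 for Osgin1, -0.45 to 0.17 for Slc7a11 and -0.53 to 0.041 for Srxn1. Among ratios they were -0.60 to 0.34 for Gclm over Gclc, -0.63 to 0.14 for Hmox1 over Hmox2 and -0.19 to 0.51 for Slc7a11 over Slc3a2 in QYD versus Model, and -0.79 to 0.022 for Slc7a11 over Slc3a2 in QYD versus Control. No paired analysis was possible because the groups share no mouse numbers. Beyond library scaling, the cause of these shifts was not tested. Depth limits Nqo1, with 1 or 2 counts per Control library.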
